A study of Rattus norvegicus with 12 samples.

Results

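The leukocyte adhesion molecules described here are 8 genes whose products let blood leukocytes attach to the vessel wall and cross it. Sele, Selp, Icam1, Vcam1 and Pecam1 act on the endothelial side, and Itgam, Itgb2 and Cd44 on the leukocyte side, although several are carried by more than 1 cell type. They were found by gene symbol in the platform's annotation. Of the 8 genes, among 4736 that the array named singly, 7 were measured, by 12 of the 8740 probe sets tested: Cd44 by 4, Icam1 and Vcam1 by 2 each, and Sele, Selp, Pecam1 and Itgam by 1 each. No probe set carried the symbol of Itgb2, and none of the 12 was shared with another gene.

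Whole lungs came from male Sprague-Dawley rats of 300 to 420 g, and each of 4 groups gave 3 of the 12 arrays; ages were not given. All rats had the femoral artery and jugular vein cannulated and a laparotomy, which served as the trauma. In the sham-shock group, T/SS, nothing more was done and no blood was taken. In the hemorrhagic shock group, T/HS, rats were bled into heparin to a mean arterial pressure of 30 mmHg, held there for 90 min and given all their blood back. The T/HS-LDL and T/SS-LDL groups had the same treatment after their efferent mesenteric lymph vessels had been tied and cut (LDL, lymph duct ligation). Lungs were taken 3 h after the 90 min period, 4.5 h after shock began. Per the series' design text, only the T/HS group had lung injury, so T/HS against T/HS-LDL compares shocked rats with and without it, and T/HS-LDL against T/SS-LDL sets shock beside sham shock where neither group had injury.

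Every group held 1 pair of near-identical arrays, although the labels call every array a biological replicate. The robust SD of the log2 differences within these 4 pairs was 0.00993 to 0.0548, and that of the other 8 within-group pairs was 0.164 to 0.232. Each near-identical pair was therefore averaged and counted as 1 sample, which left 8 samples, 2 per group. They are T/SS replicate 1 and the mean of replicates 2 and 3, and, in the other 3 groups, replicate 2 and the mean of replicates 1 and 3. Replicate 2 of T/HS stood apart from the other sample of its group at 206 probe sets that were over 2-fold higher and 45 that were over 2-fold lower, against 24 and 16 in T/SS. Replicate 2 of T/HS-LDL did so at 84 and 71 probe sets, against 46 and 40 in T/SS-LDL. Values are RMA intensities on a linear scale, and differences are on the log2 scale with standard errors from limma. Lung epithelial markers checked the tissue, with 8 of 10 measured: Sftpc, a surfactant protein gene, lay between log2 14.87 and 14.99, at or near the top of each array's range, so it shows that the tissue is lung but cannot show a change. Pdpn, of alveolar type I cells, had the smallest p-value of these markers for shock over both duct states, at -0.45 ± 0.11, and did not pass (limma adjusted p = 0.338). Of the 8 markers 6 were above 0 there, with a median of 0.02. Sftpa1, Sftpb and Ager also lay between log2 14.86 and 14.99, however, and Scgb1a1 between 14.52 and 14.66. This count and median therefore cannot show that the epithelium was unchanged. Aqp5 gave -0.525 ± 0.27 and Sftpd 0.24 ± 0.12 for shock over both duct states (limma adjusted p = 0.641 for each). In whole lung, fewer cells of a type and less RNA per cell cannot be told apart.

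Leukocytes in a vessel are first slowed by selectins, which bind sugars on passing cells and make them roll. P-selectin, the product of Selp, is stored in granules of endothelial cells and platelets and can be brought to the surface within minutes, whereas E-selectin, the product of Sele, has to be made anew. Rolling cells then arrest when leukocyte integrins bind ICAM-1 and VCAM-1 on the endothelium, and they cross at junctions that hold PECAM-1. The integrin Mac-1 consists of the products of Itgam and Itgb2, and CD44 binds hyaluronan. In the lung, neutrophils leave mainly through the narrow alveolar capillaries, where they can also be held without selectins.

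None of the 12 probe sets differed between groups in any of the 6 comparisons by limma at an adjusted p of 0.05, and none did at an unadjusted p of 0.05. Over all probe sets the share called was also 0% after adjustment in each comparison, and before adjustment it was 8.8% for T/HS against T/SS and 9.04% for shock over both duct states, which is the mean of both shock effects. Before adjustment it was 6.37% for T/HS against T/HS-LDL, 3.79% with the duct tied (T/HS-LDL against T/SS-LDL), 4.23% for T/SS-LDL against T/SS, and 2.99% for the interaction, the shock effect with the duct open minus that with it tied. The median log2 difference of the 12 probe sets between T/HS and T/SS was -0.07, against -0.01 over all probe sets. For shock over both duct states it was -0.02, against 0.01. Of the 12, 6 were above 0 in each of these comparisons.

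**Figure D1:**
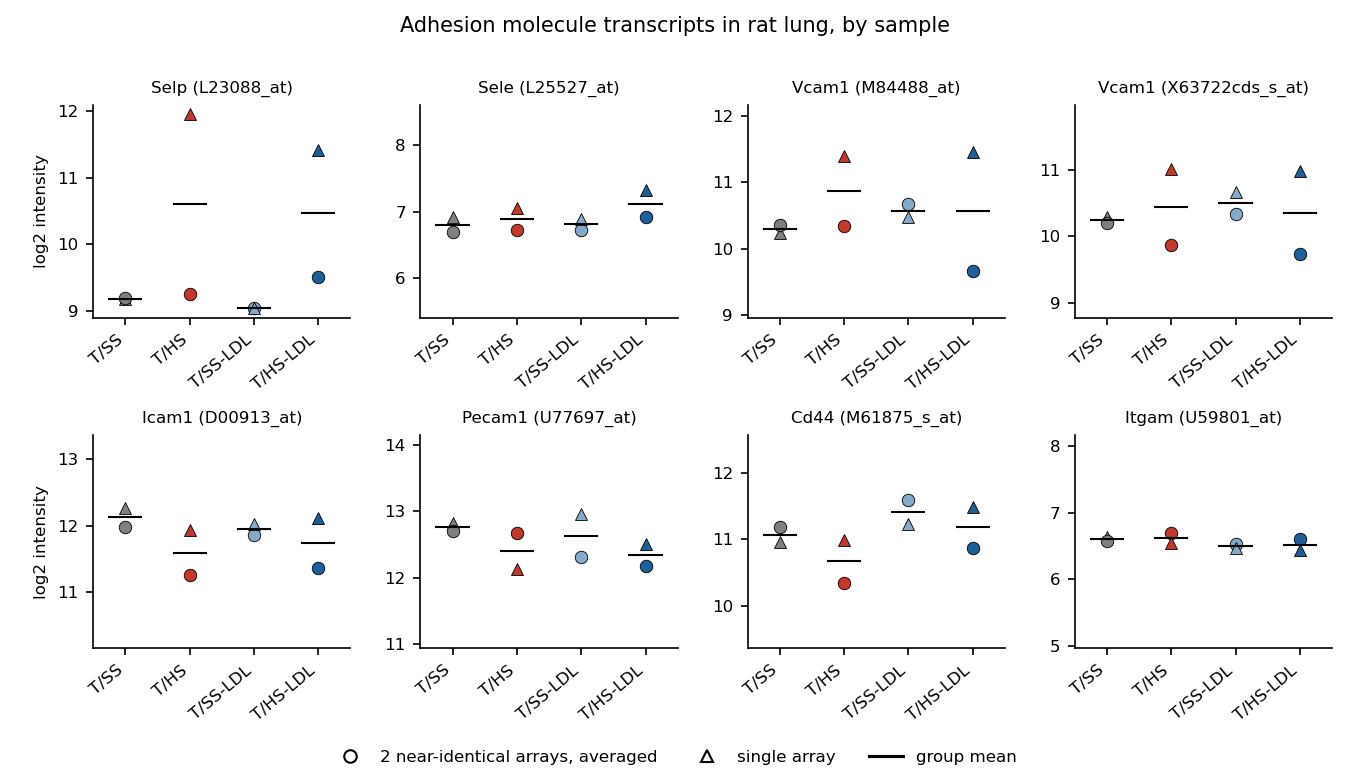
Log2 intensity of 8 of the 12 member probe sets in each sample, with 1 panel per probe set and the groups on the horizontal axis; circles are averaged near-identical arrays, triangles single arrays and lines group means. In the Selp panel the triangles of T/HS and T/HS-LDL stand at 11.95 and 11.41 and the other 6 samples at 9.51 or below.

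Selp was the member with the largest differences between shock and sham shock, and they came from 1 sample in each shocked group. Its probe set read 579 in T/SS replicate 1 and 581 in the averaged T/SS sample. In T/SS-LDL it read 526 in the averaged sample and 525 in replicate 2. In T/HS it read 607 in the averaged sample and 3957 in replicate 2. In T/HS-LDL it read 730 in the averaged sample and 2730 in replicate 2. All 4 shocked samples lay above all 4 sham-shock samples, which was so for 2.49% of all probe sets, but the averaged shocked samples were only 1.05-fold and 1.39-fold above their sham mean while replicate 2 of each group was 6.83-fold and 5.2-fold above it. The sham samples of a group, in contrast, differed by 0.0061 and 0.000913 in size on the log2 scale.

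The log2 difference of Selp was 1.42 ± 0.90 (SE, n = 2 per group) for T/HS against T/SS, with a 95% interval of -0.71 to 3.55 and a limma adjusted p of 0.687. It was 1.43 ± 0.90 in T/HS-LDL relative to T/SS-LDL (limma adjusted p = 0.998) and 1.42 ± 0.63 for shock over both duct states (limma adjusted p = 0.585). Selp was the single member higher by over 2-fold in these comparisons, where 0.995%, 0.389% and 0.538% of all probe sets were. No member was lower by over 2-fold in them, against 0.389%, 0.206% and 0.0915% of all. Without T/HS replicate 2 the first value was 0.067, and without the averaged T/HS sample it was 2.77. Without T/HS-LDL replicate 2 the second was 0.48, and without the averaged T/HS-LDL sample it was 2.38. With both replicates numbered 2 left out together, shock over both duct states gave 0.27. Only the averaged sample of each shocked group then remained, so the spread between shocked samples could not be measured.

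No difference in Selp between shocked rats with the duct open and tied was detected. The log2 difference between T/HS and T/HS-LDL was 0.13 ± 0.90 (limma adjusted p = 0.98), and the interaction was -0.01 ± 1.27, with a 95% interval of -3.02 to 3.01. The sign of each rested on single samples: without T/HS replicate 2 the first was -1.22, and without T/HS-LDL replicate 2 it was 1.09. The interval is too wide to show that the gene acts alike with the duct open and tied. T/SS-LDL against T/SS gave -0.14 ± 0.90, and here the groups did not overlap. This standard error pools the spread of all 4 groups and does not describe the sham groups alone. The SD of Selp was 0.0043 in T/SS and 0.00065 in T/SS-LDL, against 1.912 in T/HS and 1.345 in T/HS-LDL. In order, the group means were highest in T/HS, then T/HS-LDL, T/SS and T/SS-LDL, and the first of these steps, 0.135, was far below the pooled SD of 1.65.

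Sele had low signal, at percentile 11.7 of mean signal over all probe sets. Its probe set read 122 and 103 in T/SS, 105 and 133 in T/HS, 105 and 119 in T/SS-LDL, and 121 and 160 in T/HS-LDL, with the averaged sample second in T/SS and first in the other groups. The single array was the higher sample in all 4 groups, sham groups included, by at most 1.33-fold. The T/HS-LDL samples lay above the T/SS-LDL samples by 0.31 ± 0.18 on the log2 scale (limma adjusted p = 0.998), whereas T/HS and T/SS overlapped with a difference of 0.08 ± 0.18 (limma adjusted p = 0.936). That difference was -0.088 without T/HS replicate 2 and -0.041 without the averaged T/SS sample.

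Vcam1 and Icam1 encode the endothelial ligands for leukocyte integrins, and both are textbook targets of the transcription factor NF-kappaB. RefSeq's promoter table (build GRCr8), which covers 250 bases before to 50 after each start, held 5 of the 8 members: Sele, Icam1, Vcam1, Itgam and Cd44. The kappaB consensus (10 bases, with G or T allowed at its first base, searched on both strands) occurred at 2 places in the Vcam1 window and 1 in the Icam1 window, and not in the windows of Sele, Itgam and Cd44. It occurred in 16.1% of the 33469 promoters of that length. The Vcam1 matches lay 109 to 100 and 93 to 84 bases before the start, the second of them matching on both strands, and the Icam1 match lay 219 to 210 bases before the start that this table uses. RefSeq's gene table begins Icam1 further upstream, and from that first base the match lay 62 to 53 bases away. The stretches below run up to the first base of the gene in the gene table, in lower case with the matches in capitals, and are shown because Vcam1 was, beside Selp, the member that differed most between the samples of a shocked group, whereas Icam1, with a match as well, differed less. A match is a run of letters and not a site shown to be bound, and RefSeq gives another, earlier start for Sele whose promoter was not searched.
Vcam1, chr2:206742784-206742933, minus strand: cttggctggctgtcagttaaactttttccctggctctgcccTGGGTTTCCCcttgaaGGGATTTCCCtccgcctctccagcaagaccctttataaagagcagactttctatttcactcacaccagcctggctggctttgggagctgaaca
Icam1, chr8:27829595-27829687, plus strand: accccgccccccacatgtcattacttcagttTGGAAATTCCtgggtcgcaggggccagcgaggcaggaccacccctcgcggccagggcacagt

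The first of the 2 Vcam1 probe sets, M84488_at, read 1207 and 1307 in T/SS replicate 1 and the averaged T/SS sample. It read 1298 in the averaged T/HS sample and 2677 in T/HS replicate 2. In T/SS-LDL it read 1630 in the averaged sample and 1420 in replicate 2, and in T/HS-LDL it read 813 and 2809. The second, X63722cds_s_at, showed the same order within the shocked groups, with 931 and 2074 in T/HS and 852 and 2014 in T/HS-LDL, whereas the sham samples lay between 1170 and 1629. In both probe sets the replicates numbered 2 of the shocked groups were the highest 2 samples, and the averaged T/HS-LDL sample was the lowest of all 8.

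The group means of Vcam1 differed little beside this spread. T/HS against T/SS gave 0.57 ± 0.57 for M84488_at and 0.20 ± 0.48 for X63722cds_s_at (limma adjusted p = 0.814 and 0.938). T/HS-LDL against T/SS-LDL gave -0.01 ± 0.57 and -0.15 ± 0.48, both with a limma adjusted p of 0.998. Shock over both duct states gave 0.28 ± 0.40 and 0.03 ± 0.34, with the 95% interval of the first from -0.68 to 1.24. Without the replicates numbered 2 of both shocked groups these last values were -0.43 and -0.57, so their direction turned on those samples. Only the averaged sample then remained in each shocked group, so the spread between shocked samples could not be measured. For T/HS against T/SS alone, leaving out T/HS replicate 2 gave 0.048 and -0.38. For the pair with the duct tied, leaving out T/HS-LDL replicate 2 gave -0.90 and -0.77, and leaving out the averaged T/HS-LDL sample gave 0.88 and 0.47.

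Icam1 was bright in every sample and had its lowest values in the averaged shocked samples. D00913_at read 4947 and 4061 in T/SS, 2444 and 3909 in T/HS, 3720 and 4182 in T/SS-LDL and 2634 and 4440 in T/HS-LDL, with the averaged sample second in T/SS and first elsewhere. The averaged T/HS and T/HS-LDL samples were thus the lowest 2 of the 8, and replicate 2 of each lay within the range of the sham samples. The other probe set of the same transcript, D00913_g_at, gave 11757 and 11871 in those averaged samples and 15748 to 18492 in the other 6. T/HS lay below T/SS without overlap in D00913_at, by -0.54 ± 0.30 (limma adjusted p = 0.642), and the difference was -0.87 without T/HS replicate 2 and -0.20 without the averaged T/HS sample. In D00913_g_at these groups overlapped, with a difference of -0.29 ± 0.23 (limma adjusted p = 0.744). For D00913_at, T/HS-LDL against T/SS-LDL gave -0.21 ± 0.30, which became 0.17 without the averaged T/HS-LDL sample. Shock over both duct states gave -0.37 ± 0.21 (limma adjusted p = 0.70).

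Pecam1, a junctional protein of endothelium that platelets and leukocytes also carry, read 7226 and 6696 in T/SS and 6561 and 4498 in T/HS. It read 5060 and 7928 in T/SS-LDL and 4651 and 5838 in T/HS-LDL. Here replicate 2 of T/HS was the lowest sample of all 8, in contrast to Selp and Vcam1. T/HS lay below T/SS without overlap, by -0.36 ± 0.26 (limma adjusted p = 0.733), and T/HS-LDL against T/SS-LDL gave -0.28 ± 0.26 with overlap. The first difference was -0.084 without T/HS replicate 2 and -0.63 without the averaged T/HS sample, and the second was 0.042 without T/SS-LDL replicate 2. Over both duct states the difference was -0.32 ± 0.18 (limma adjusted p = 0.703).

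On the leukocyte side, Itgam, which encodes the alpha chain of Mac-1 on neutrophils, monocytes and macrophages, had low signal, at percentile 8.67. It read 99.6 and 95.6 in T/SS, 103.7 and 93.2 in T/HS, 92.3 and 88.9 in T/SS-LDL, and 97.1 and 86.3 in T/HS-LDL. In the 3 groups where replicate 2 stood alone, it was the lower sample. T/HS against T/SS gave 0.01 ± 0.11, with a 95% interval of -0.24 to 0.27, and its sign reversed under quantile normalization (-0.022). T/HS-LDL against T/SS-LDL gave 0.01 ± 0.11 and shock over both duct states 0.01 ± 0.08; these also changed sign under quantile normalization, to -0.0079 and -0.015. Without the averaged T/HS sample the first value was -0.066.

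Cd44, the hyaluronan receptor of leukocytes and many other cells, was read by 1 probe set of moderate signal and 3 of low signal. M61875_s_at read 2000 and 2318 in T/SS, 1297 and 2040 in T/HS, 3087 and 2411 in T/SS-LDL and 1879 and 2865 in T/HS-LDL. The averaged T/HS sample was the lowest, and the averaged T/SS-LDL sample the highest. The log2 difference was -0.40 ± 0.28 for T/HS against T/SS (limma adjusted p = 0.716), -0.23 ± 0.28 in T/HS-LDL relative to T/SS-LDL and -0.32 ± 0.20 over both duct states. The first was -0.078 without the averaged T/HS sample and -0.73 without T/HS replicate 2, and the second was 0.071 without the averaged T/HS-LDL sample. The other 3 probe sets lay at percentiles 0.812, 11.3 and 26.8, read between 51.4 and 301, and their differences between T/HS and T/SS ranged from -0.15 to 0.06.

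**Figure D2:**
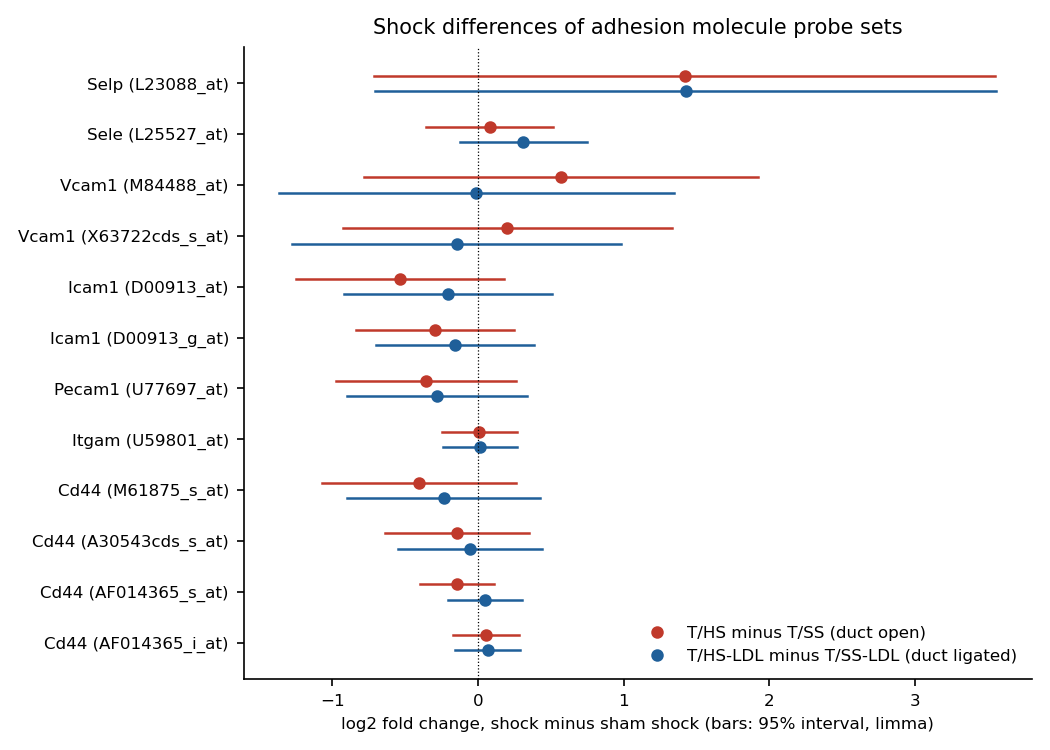
Log2 differences of the 12 member probe sets between shock and sham shock, T/HS minus T/SS in red and T/HS-LDL minus T/SS-LDL in blue, with bars for the 95% intervals from limma. Every interval includes 0, and that of Selp with the duct open reaches from -0.71 to 3.55.

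Counts of probe sets whose groups do not overlap are read against the share of all probe sets that did the same. Between T/HS and T/SS, 2 of the 12 member probe sets were higher without overlap (Selp and 1 of Cd44), against 19.2% of all, and 3 were lower (1 each of Cd44, Icam1 and Pecam1), against 20.9%. Between T/HS-LDL and T/SS-LDL, 2 were higher (Selp and Sele), against 16.8%, and 0 were lower, against 12.4%. Between T/HS and T/HS-LDL, 0 were higher, against 18.4%, and 1 of Cd44 was lower, against 15.7%. For shock over both duct states 0 were lower, against 2.15%. Both comparisons with T/HS share the T/HS samples, and both with T/SS share the T/SS samples.

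No member differed between sham-shock rats with the duct tied and open at an unadjusted p of 0.05 by limma. Between T/SS-LDL and T/SS, 4 of 12 probe sets were higher without overlap (both of Vcam1 and 2 of Cd44), against 16.2% of all, and 3 were lower (Selp, Itgam and 1 of Cd44), against 24.5%. The largest difference, in Cd44 M61875_s_at, was 0.34 ± 0.28 (limma adjusted p = 0.90). In the same probe set T/HS against T/HS-LDL gave -0.51 ± 0.28 (limma adjusted p = 0.78), the largest difference of any member in that comparison. Over the 12 probe sets the T/HS against T/HS-LDL differences lay between -0.51 and 0.30, and the interaction lay between -0.33 (Icam1) and 0.58 (Vcam1), the smallest limma adjusted p being 0.775 and 1. No member passed 2-fold in the interaction, where 0.835% of all were over it and 0.492% below its inverse.

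The pattern that set Selp and Vcam1 apart was the difference between the samples of 1 shocked group, which was noticed after their values were seen and is described here without a test. In replicate 2 of both shocked groups, 13 of the 8740 probe sets (0.149%) were over 2-fold higher than in the averaged sample, and 3 of these were members: Selp and both Vcam1 probe sets. By the smaller of both differences Selp came first of all probe sets, with log2 differences of 2.70 in T/HS and 1.90 in T/HS-LDL. Vcam1 gave 1.04 and 1.79 with M84488_at, and 1.16 and 1.24 with X63722cds_s_at. In the sham groups the same difference for Selp was -0.0061 and -0.000913. Of the 13 probe sets, 9 carried a single gene symbol, and the others besides Selp and Vcam1 were Gzmb, a granule protease of cytotoxic lymphocytes, Ptpn1, RT1-Bb, Mapk6, Slc28a2 and Hk2. Fewer probe sets, 7, were over 2-fold lower in both replicates, and in the sham groups 3 were over 2-fold higher in both single arrays. Of the 12 member probe sets 7 were higher in replicate 2 of both shocked groups, against 19.4% of all, and 5 were higher in the single array of both sham groups, against 30.3%.

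**Figure D3:**
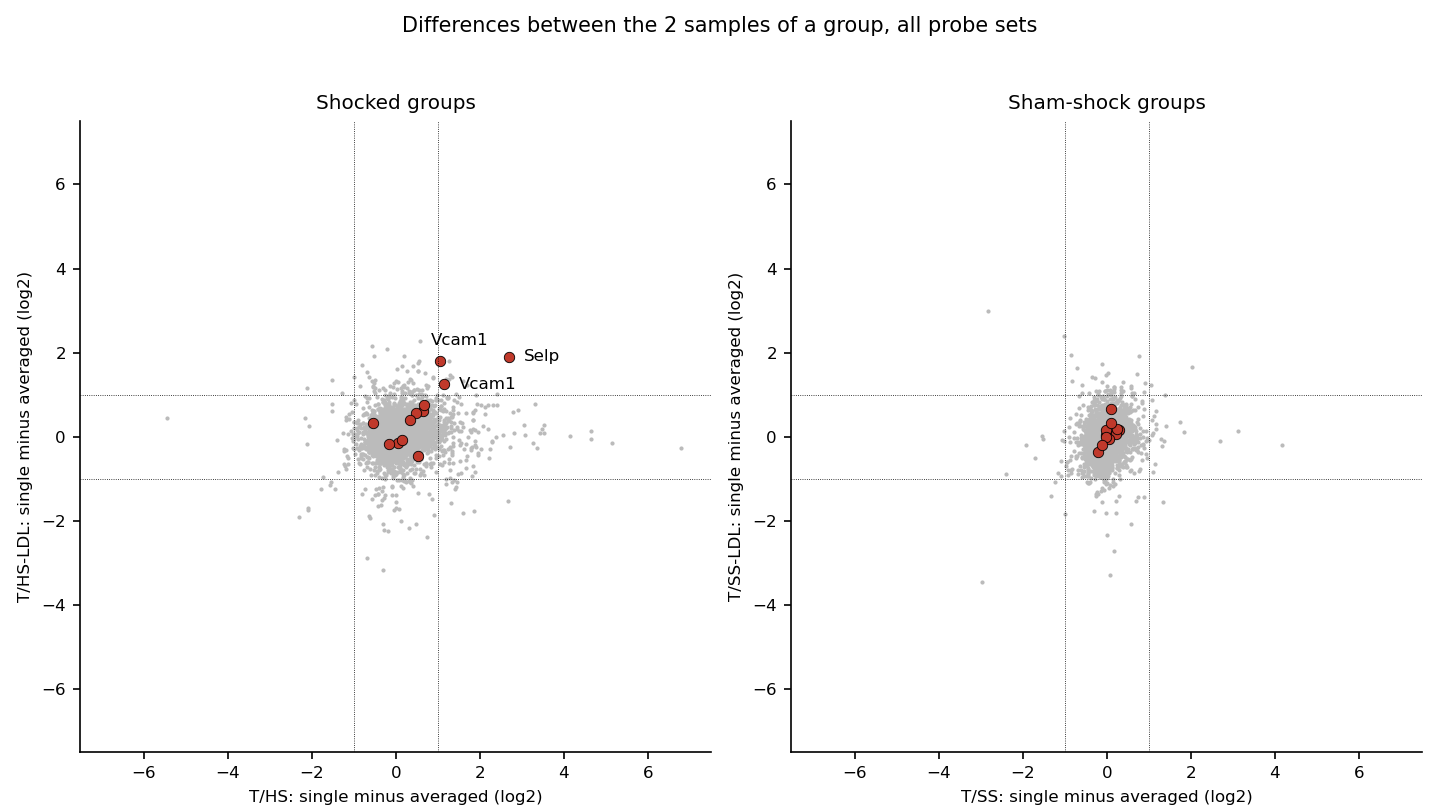
Log2 difference between the single array and the averaged arrays of a group for every probe set, T/HS against T/HS-LDL on the left and T/SS against T/SS-LDL on the right, with member probe sets in red and dotted lines at a 2-fold difference. Selp and both Vcam1 probe sets lie in the upper right of the shocked panel, at 2.70 and 1.90 for Selp, whereas every member lies within the lines in the sham panel.

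Marker lists for the cell types that could carry these genes are given here beside Selp and Vcam1. The level of a list in a sample is given as log2 differences from T/SS, averaged over the list's genes. Neutrophil markers, 10 of 25 measured, stood at 0.563 in the averaged T/HS sample and 1.07 in T/HS replicate 2, at 1.04 and 1.27 in T/HS-LDL, at 0.423 and 0.501 in T/SS-LDL, and at -0.133 and 0.133 in T/SS. All 10 had a log2 difference above 0 between T/HS and T/SS, against 48.4% of all probe sets. An unadjusted limma p under 0.05 was found there for 6, against 8.8% of all. Il1r2 gave 1.59 ± 0.31 and S100a8 1.36 ± 0.36 (limma adjusted p = 0.373 and 0.417). In T/HS-LDL relative to T/SS-LDL all 10 were above 0 and 5 had such a p, against 54.1% and 3.79%. In T/SS-LDL relative to T/SS 8 were above 0 and 3 had such a p, against 44.7% and 4.23%. Endothelial markers, 11 of 25 measured without the members, stood at -0.401 in T/HS replicate 2 and between -0.165 and 0.055 in the other 7 samples. Between T/HS and T/SS 2 of the 11 were above 0, against 48.4% of all probe sets. An unadjusted limma p under 0.05 was found there for 2, against 8.8% of all. These were Tfpi at -0.85 ± 0.15 and Kdr at -0.55 ± 0.16 (limma adjusted p = 0.373 and 0.434). Vwf, stored with P-selectin in endothelial granules, read log2 10.68 in T/HS replicate 2 and 10.14 in T/HS-LDL replicate 2. The averaged samples of these groups read 10.73 and 10.62, and the sham samples lay between 10.33 and 10.79. Platelet markers, 4 of 9 measured, lay between -0.422 and 0.0732 in all samples. In T/HS-LDL they stood at -0.422 in the averaged sample and 0.0202 in replicate 2, and all 4 were higher in replicate 2, by 0.0726 to 0.61. In T/HS they stood at -0.15 in the averaged sample and -0.174 in replicate 2. The mean of the neutrophil list was thus also higher in replicate 2 of both shocked groups than in the averaged sample, but its genes were mixed. Their log2 differences ranged from -0.261 to 1.1 in T/HS (median 0.528) and from -0.53 to 1.28 in T/HS-LDL (median 0.0453). In T/HS 3 genes of the list were over 2-fold higher in replicate 2 (S100a8, S100a9 and Il1r2), and in T/HS-LDL 2 were (Mmp8 and Mmp9). In T/HS-LDL the same difference was 0.139 for S100a8, -0.0481 for S100a9 and -0.264 for Il1r2. Monocyte and macrophage markers, 9 of 21 measured, stood at 0.277 in the averaged T/HS sample and 0.353 in replicate 2. In T/HS-LDL they stood at 0.248 and 0.277. Of these 7 were above 0 between T/HS and T/SS, against 48.4% of all probe sets. Ccr2 gave 0.65 ± 0.09 and Cd14 1.25 ± 0.32 (limma adjusted p = 0.305 and 0.417). T and NK cell markers stood at 0.619 and 0.0316 in T/HS, where Cd2 read log2 12.18 and 6.74. They stood at -0.249 and 0.0841 in T/HS-LDL. No endothelial, platelet, neutrophil or monocyte marker, and 1 of 13 T and NK cell markers (Gzmb), was over 2-fold higher in replicate 2 of both shocked groups. The part of cell makeup in the Selp and Vcam1 values was not tested.

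**Figure D4:**
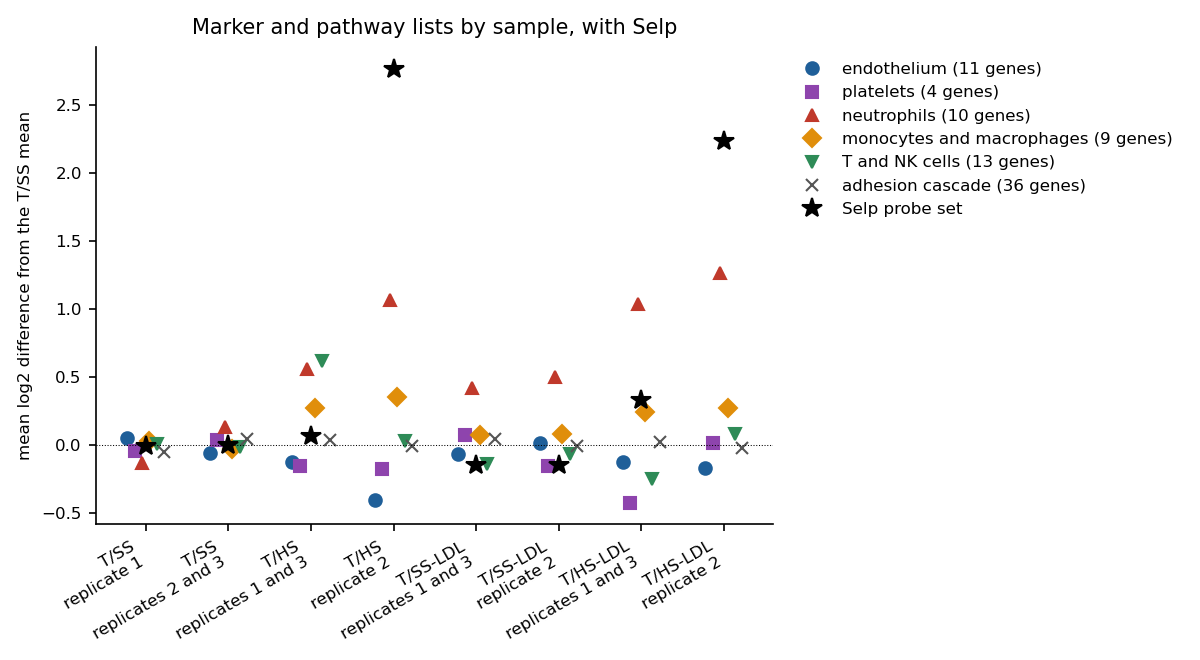
Log2 difference from the mean of T/SS, averaged over genes, of 5 cell type marker lists and of the other adhesion genes in each of the 8 samples, with the Selp probe set as a star. The star stands at over 2 in replicate 2 of T/HS and T/HS-LDL, where endothelial markers stand at -0.401 and -0.165 and neutrophil markers at 1.07 and 1.27.

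Other genes of the adhesion cascade did not share the Selp pattern. Of 59 genes of rolling, arrest, crawling and crossing that were listed besides the members, 36 were measured, and none passed the limma test in any of the 6 comparisons. At an unadjusted p of 0.05 there were 4 between T/HS and T/SS, 3 for shock over both duct states, 1 between T/SS-LDL and T/SS, and 0 in the rest. Median log2 difference of the 36 between T/HS and T/SS was 0.03, with 21 above 0. Over all probe sets the median was -0.01, with 48.4% above 0. The smallest p-values there belonged to Has2, which makes hyaluronan, at 0.35 ± 0.11 (limma adjusted p = 0.455), and to Ceacam1, an adhesion molecule of leukocytes and epithelium, at -0.28 ± 0.10 (limma adjusted p = 0.51). Between T/HS-LDL and T/SS-LDL they belonged to Plaur, the urokinase receptor, at 0.30 ± 0.13, and Cd151, a tetraspanin, at -0.22 ± 0.11, both with a limma adjusted p of 0.998. Between T/HS and T/HS-LDL they belonged to Madcam1, an integrin ligand of mucosal vessels, at 0.21 ± 0.11, and Msn, which links CD44 to the cytoskeleton, at 0.36 ± 0.20. Between T/SS-LDL and T/SS they belonged to Cd24, a P-selectin ligand, at 0.46 ± 0.19, and Thy1 at -0.24 ± 0.14, both with a limma adjusted p of 0.896. None of the 36 was over 2-fold higher in replicate 2 of both shocked groups.

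The genes whose levels followed each member most closely were found by Pearson correlation over the 8 samples among 4736 genes, as a description, since the highest of so many values is high by selection. For Selp they were Ninj1 (r = 0.972), Ptk2b (0.957) and Gzmb (0.950), but over the 6 samples without replicate 2 of both shocked groups the same r values were 0.198, 0.668 and -0.512. For Vcam1 they were Scamp2 and Id2 (0.933 each) and Slc11a2 (0.930), with 0.943, 0.731 and 0.811 without those samples. For Icam1 they were Marcks (0.930), Rpl22 (0.921) and Rtcb (0.907), and for Pecam1 Selenow (0.981), Afdn (0.953) and Fgfr1 (0.949). For Cd44 they were Tomm20 (0.976), Zfp326 (0.975) and Cox5b (0.969), for Sele Znrf1 (0.956), Bhlhe40 (0.922) and Dnajc1 (0.911), and for Itgam Cilk1 (0.987), Lama1 (0.973) and Slc9a2 (0.972). Low signal, at percentiles 11.7 for Sele and 8.67 for Itgam, limits what the r values of these members can mean. The likeness of Ninj1 and Gzmb to Selp thus rested on the 2 shocked samples in which Selp was high, and that of Ptk2b was lower without them.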

How the data were processed

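Expression was measured on one-colour Affymetrix rat arrays, whose probe sets each read part of 1 transcript. The authors deposited intensity values made with RMA, per the submitters' processing notes, which gave no version; RMA corrects background, normalizes between arrays and summarises the probes of a set. Values lay on a linear scale, and log2 of each was used with no further scaling. The table held 8799 probe sets; 59 controls were dropped, and 7006 of the rest carried 1 symbol in the platform annotation, 308 several and 1426 none. Array medians lay between 647 and 677, and the number of arrays limits the precision.

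Arrays of a group with a robust SD of their log2 differences under 0.1 were averaged. The 8 samples then entered 1 limma model (version 3.58.1, R 4.3.3) with a mean per group (lmFit, then eBayes; 4 residual and 2.85 prior degrees of freedom, prior SD 0.131 log2); tests were two-sided, with Benjamini-Hochberg adjustment over 8740 probe sets and a threshold of 0.05. The labels do not say that the replicates came from separate experiments, so p-values measure the spread between these samples only.

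The 8 members are named by rule, with the 3 genes most like each member. Up to 2 genes of each list per comparison (those past the threshold or with the smallest p) were picked by rule. The text gives these for some lists and comparisons only. Members and lists were chosen with earlier results of these data known. Same-numbered arrays deviated together only weakly (r above 0.1 in 3 of 18 pairs, range -0.166 to 0.189). For T/HS with T/HS-LDL r was 0.0876, 0.124 and 0.114 at replicates 1, 2 and 3. Because each group holds a near-identical pair, the 18 values are not separate checks. The labels state no pairing, so no pairing was used. The fit was tested on simulated data. Alternatives were other scalings, a pseudocount of 50, a filter on dim probe sets, a shared or separate spread, all 12 arrays, and leaving out each sample; 1 alternative, leaving out replicate 2 of both shocked groups, was chosen after seeing the data.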

Additional observations from a re-analysis of the deposited data

How the results depend on the processing

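No member probe set passed an adjusted p of 0.05 under any of the 18 alternatives (lowest limma adjusted p 0.0669). Of 1248 member values, 101 changed sign: 73 of 576 with 1 sample left out, 8 of 72 with replicate 2 of both shocked groups left out, and 20 of 600 under other settings, where the largest such value was 0.137 in size. Taking all 12 arrays as separate samples called 629 of all probe sets between T/HS and T/SS, the replicate block called 456 and a random block for the averaged sample 25, and 0 members were called in each; the labels do not pair the samples. Quantile normalization turned Itgam to -0.0217 for T/HS against T/SS, to -0.00794 with the duct tied and to -0.0148 over both duct states, and subtracting sample medians turned it to -0.00516 with the duct tied. The Selp interaction became 0.0396, 0.0141 and 0.00994 under quantile normalization, subtracted medians and log2(value + 50). Shock over both duct states for Vcam1 X63722cds_s_at became -0.14 with 12 separate arrays and with the replicate block. Leaving out replicate 2 of both shocked groups gave, for T/HS against T/SS, -0.0881 for Sele and -0.38 for Vcam1 X63722cds_s_at. It gave -0.27 for Selp in T/HS against T/HS-LDL, and -0.43 and -0.57 for Vcam1 M84488_at and X63722cds_s_at over both duct states. The causes were not tested.

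With 1 sample left out, T/HS against T/SS ranged from 0.0674 to 2.77 for Selp, -0.0881 to 0.25 for Sele, -0.38 to 0.78 for Vcam1 X63722cds_s_at and -0.0663 to 0.0872 for Itgam. The shock effect with the duct tied ranged from -0.90 to 0.88 and -0.77 to 0.47 for the Vcam1 probe sets, -0.58 to 0.17 for Icam1, -0.61 to 0.0425 for Pecam1, -0.54 to 0.0706 for Cd44 and -0.0706 to 0.0999 for Itgam. Over both duct states it ranged from -0.17 to 0.73 and -0.28 to 0.34 for Vcam1 and -0.0301 to 0.0552 for Itgam. The Selp difference between T/HS and T/HS-LDL ranged from -1.22 to 1.49, and its interaction from -1.36 to 1.34. Low signal limits what can be seen of Sele, Itgam and 3 of the 4 Cd44 probe sets.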
